A study of Rattus norvegicus with 24 samples.

Results

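Liver transcripts of rats given metformin for 3 days were compared with those of rats given it for 1 day, and the same day step was measured in rats given the vehicle. The comparison uses the 4 arrays labelled metformin at day 3 and the 4 at day 1, chosen by their labels and making up 8 of the 24 arrays of the series, with the 8 vehicle arrays of the same days set beside them. The animals were male Wistar rats of the RccHan:WIST strain, 7 to 8 weeks old, with no genetic change, and each array held the liver RNA of a different rat. Metformin was given by gavage at 800 mg/kg on each day, and the control rats received at 0 mg/kg the vehicle that all groups shared, a 10/40/50 mixture of ethanol, Kolliphor HS 15 and tap water. The design text states 5 rats per group, of which 4 per group are on the arrays analysed here. Days 1 and 3 were reached by different rats, so a day step is a difference between animals and not a course within an animal. The day 14 arrays entered only the shared estimate of spread.

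Metformin is a biguanide that lowers blood glucose, and the liver is held to be its main site of action, where it enters hepatocytes through organic cation transporters, inhibits respiratory complex I and activates the AMP-activated kinase. Hepatocytes also secrete most plasma proteins, which are made at the endoplasmic reticulum (ER), folded there, and carried to the Golgi in COPII-coated vesicles, while COPI-coated vesicles run back. In the fasted liver the nuclear receptor PPARA drives genes of fatty acid uptake, thioester cleavage and oxidation.

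Levels are log2 of the deposited intensity. A step is the mean level on day 3 minus that on day 1, given with its standard error from limma, n = 4 rats per group. Of 22093 genes with a probe set that carried 1 symbol, 19686 passed the filter on low levels and 2407 did not. A gene is called where its limma p, adjusted over all 19686 genes by the Benjamini-Hochberg method, is under 0.05. The hepatocyte products Alb and Ttr lay between 19.82 and 19.9 and between 19.34 and 19.46 in the 16 arrays of days 1 and 3, and the mean level of the 15 hepatocyte genes between 14.49 and 14.82, as the tissue label says. Serpina1, of the same hepatocyte list, lay lower, at 9.76 to 9.96. Prss1, of pancreatic acinar cells, and Adipoq, of adipocytes, stayed at or below 4.64 and 4.86, where the filter stands at 4.28. Array medians ran from 6.143 to 6.251 over all 24 arrays, and arrays of a group correlated at 0.9895 or more. Single arrays stood apart from their groups. On the second principal component (10.4% of the variance), replicates 2 to 4 of metformin day 3 lay at -16.51 to -24.12. Replicate 1 lay at -2.52, among the other 12 arrays of these days, which lay between -3.89 and 12.94. On the first component (23.2%), replicate 3 of metformin day 3 lay at -21.18 and the others of its group at -5.31 to -11.89. On the third (7.79%), replicate 4 of vehicle day 1 lay at 19.04 and the others of its group at 4.7 or less. Counts are therefore also given without single arrays.

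Between day 1 and day 3 of metformin, 355 genes changed (1.8% of the genes tested). Of these, 163 rose (0.828%) and 192 fell (0.975%). The median step of all tested genes was -0.04, and 41.2% of steps were above 0. The median rise among called genes was 0.49, ranging from 0.25 to 1.59, and the median fall was -0.52, ranging from -0.25 to -1.78. The genes that rose were led by Ifrd1 and included 10 genes of transport between ER and Golgi, the translocon proteins Ssr1 and Ssr3 and the folate enzyme Aldh1l1. Those that fell were led by the glycine transporter Slc6a9 and included the acyl-CoA thioesterases Acot3, Acot4, Acot5 and Acot7, the carnitine transporter Slc22a5 and the lipase Pnpla2. An unadjusted p under 0.05 was reached by 3400 genes, where 984 would fall there if p-values were uniform.

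**Figure D1:**
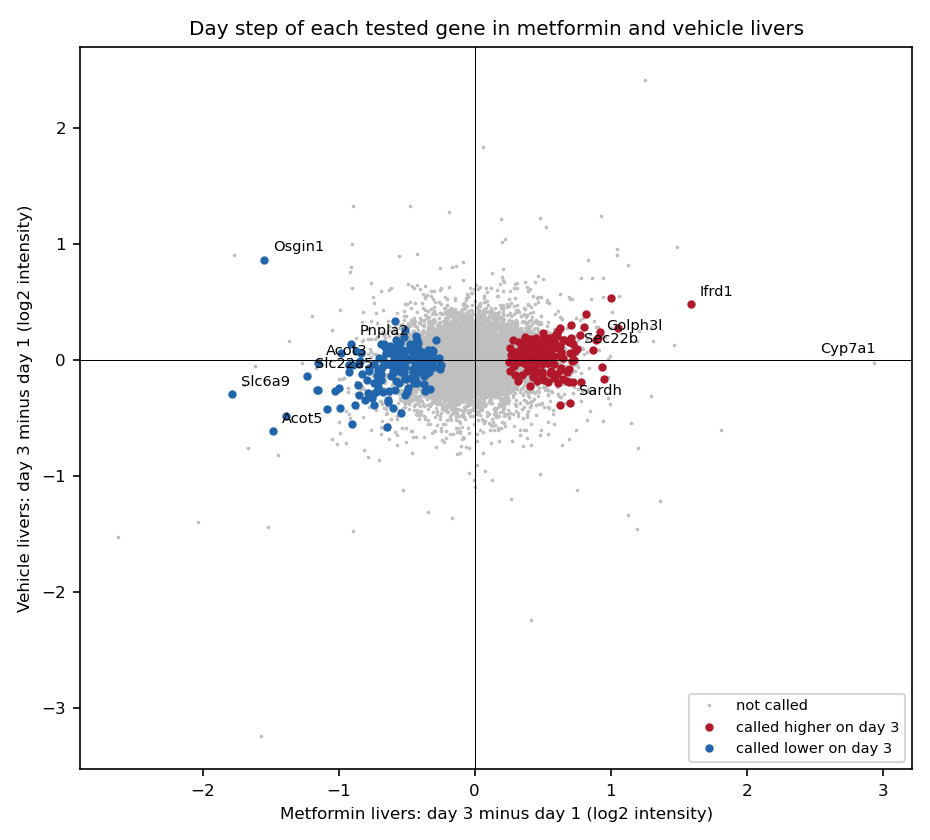
Each point is 1 of 19686 tested genes, placed by its day step (day 3 minus day 1, log2 intensity) in metformin livers on the horizontal axis and in vehicle livers on the vertical axis; red and blue mark the 163 genes called higher and the 192 called lower in metformin livers. Called genes spread to both sides horizontally, and Osgin1 at 0.86 and Acot5 at -0.62 mark their widest vehicle steps.

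The vehicle rats gave no called gene over the same days (0% of those tested, limma), with 927 genes at an unadjusted p under 0.05 and a smallest adjusted p of 0.62. The nearest to a call among the vehicle rats were F13b, the B subunit of coagulation factor XIII, at 0.42 ± 0.09, Cfap126 at 2.42 ± 0.49 and Tent4a at -0.69 ± 0.15. Acy1, an aminoacylase, fell in metformin livers by 0.64 ± 0.15 (adjusted p = 0.033) and had nearly the same step in vehicle livers, -0.58 ± 0.15. A count of calls in one arm and none in the other does not show that the steps differ. The difference itself, the metformin step minus the vehicle step, was tested, and limma called 0 genes (0%), with 2102 at an unadjusted p under 0.05 and a smallest adjusted p of 0.0641, shared by Nopchap1, Mterf1, Pcbp2 and Loxl1.

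The 4 rats of a group did not overlap the other day's 4 in 866 genes that were higher on day 3 of metformin (4.4%) and 1287 that were lower (6.54%). In vehicle livers the same counts were 341 (1.73%) and 246 (1.25%). Among called genes, 144 of the 163 rises and 186 of the 192 falls were free of overlap, which the call itself favours.

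The number of calls rested on single arrays. Without replicate 1 of metformin day 3 it was 680, and without replicate 2 or 3 of that group 106 and 63. Without replicate 2, 3 or 4 of metformin day 1 it was 118, 91 and 154. All 355 genes kept their direction in every such fit, and 51 of them stayed called in all 16 fits that left out 1 array. Of the 57 called genes that the rule for named genes picked, 21 did so. Of the 16 fits, 8 left out a vehicle array, which cannot move a metformin step and alters only the shared spread. These kept 312 to 350 of the 355 calls, against 63 to 314 in the fits without a metformin array. A count of fits out of 16 therefore includes fits that put a call to little test. The balance of rises and falls moved with the scaling: 45.9% of calls were rises as deposited, 34.8% after a further quantile normalization, 35.6% after cyclic loess and 64.5% of 138 calls after centring each array on its median.

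The vehicle livers place each called gene on the metformin path. Their mean over both days lay between the 2 metformin days for 149 of the 163 genes that rose (91.4%) and for 187 of the 192 that fell (97.4%). Among the rises, day 3 was the day farther from the vehicle mean for 109 genes and day 1 for 54. Among the falls the balance was the other way round, with day 1 farther for 126 genes and day 3 for 66. So Golph3l stood 0.43 above the vehicle mean on day 1 and 1.34 above on day 3, whereas Slc6a9 stood 1.70 above on day 1 and at -0.08 from it on day 3. These positions are descriptions without a test, because the genes were called on 2 of the group means that they use.

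**Figure D2:**
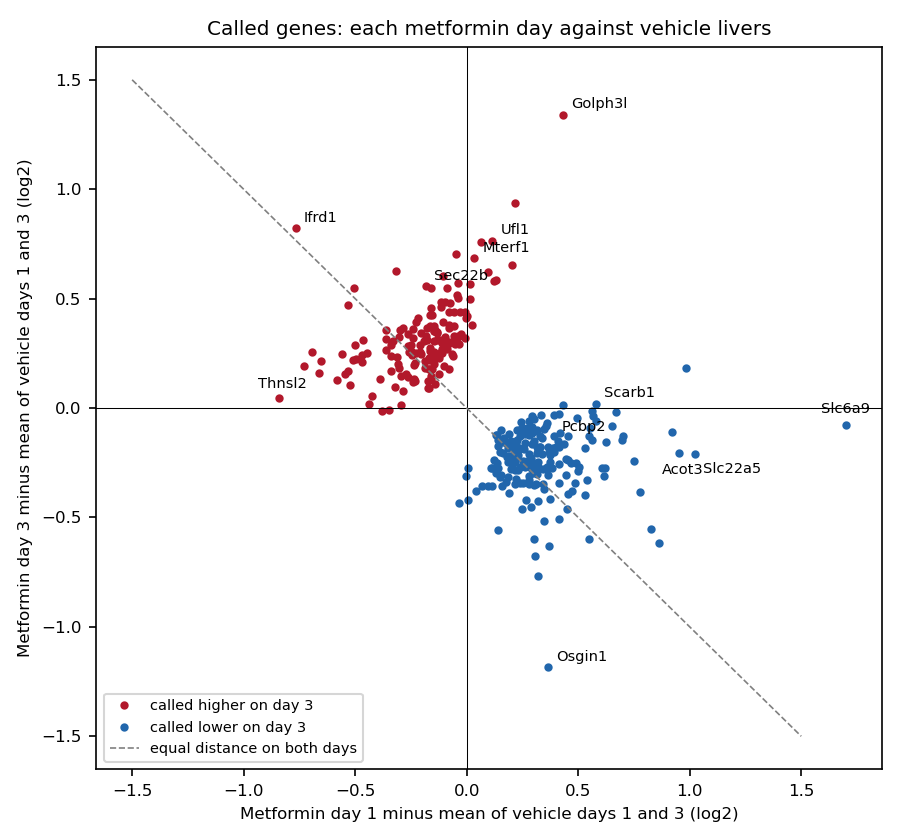
Each point is 1 of the 355 called genes, placed by its distance from the mean of the 8 vehicle livers of days 1 and 3 (log2) on metformin day 1 (horizontal) and on metformin day 3 (vertical); red marks rises and blue falls, and the dashed line marks equal distance on both days. Slc6a9, Slc22a5 and Acot3 lie far right near the horizontal axis, high on day 1 and near the vehicle level on day 3, while Golph3l and Ufl1 lie high up, above the vehicle level on day 3.

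The largest rise belonged to Ifrd1, a transcriptional co-regulator induced by growth factors and by stress. Its levels were 8.68, 8.96, 9.58 and 9.18 in the 4 metformin rats of day 1 and 10.49, 10.95, 11.08 and 10.25 in those of day 3. All day 3 rats were above all day 1 rats, a 3.02-fold rise of 1.59 ± 0.24 (adjusted p = 0.00479). The vehicle rats, at 8.98 to 10.26 on day 1 and 9.84 to 10.72 on day 3, overlapped both metformin days, with a step of 0.48 ± 0.24, and the difference between the steps was 1.11 ± 0.34 (adjusted p = 0.255).

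Thnsl2, a threonine synthase-like protein, was low on day 1 of metformin rather than high on day 3. Its day 1 levels were 9.48, 9.29, 9.08 and 9.25, all under the 9.83 of the lowest vehicle rat, and its day 3 levels 10.28, 9.86, 10.31 and 10.21 lay within the vehicle range. The step was 0.89 ± 0.15 (adjusted p = 0.00767) against 0.18 in vehicle livers. Lyplal1, a serine hydrolase of the lysophospholipase family, rose by 0.81 ± 0.14 (adjusted p = 0.00819), from 8.31 to 8.88 on day 1 to 9.08 to 9.69 on day 3, without overlap. The other genes among the 10 largest rises, with symbols such as LOC and Vom left out of the ranking, were Ttc24 (1.05), Fusl1 (0.95), Tp53inp1 (0.93), Aldh1l1 (0.92), Golph3l (0.91), Ptprn (0.87) and Trim5 (0.82), with adjusted p between 0.0298 and 0.0467. Tp53inp1 is a stress protein induced by p53, and Ptprn a phosphatase-like protein of secretory vesicles. Each of these 7 lost its call when 1 or another array was left out, with adjusted p up to 0.18, whereas Ifrd1, Thnsl2 and Lyplal1 stayed called in all 16 fits.

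The largest fall belonged to Slc6a9, the glycine transporter GlyT1. Day 1 levels were 10.42, 11.22, 11.97 and 12.00 and day 3 levels 9.84, 9.79, 8.89 and 9.96. Every day 1 rat was above every day 3 rat, and the step was a fall by 1.78 ± 0.35 (3.44-fold, adjusted p = 0.0145). The vehicle rats covered 8.98 to 10.42 over both days, so that day 1 of metformin was the group that stood off. Slc6a13, a transporter of GABA, betaine and taurine of the same family, fell by 1.00 ± 0.22 (adjusted p = 0.0257), with day 1 levels of 14.89 to 15.51 and day 3 levels of 13.48 to 14.62. Of 17 tested members of the SLC6 family, a group picked after values were seen, these 2 fell (11.8%, against 0.975% of all genes). In the family 16 of 17 steps were below 0 and the median was -0.16, where 41.2% of all steps were above 0. Without replicate 3 of metformin day 3, Slc6a9 had an adjusted p of 0.074 and Slc6a13 of 0.107, and both calls were also lost without replicate 3 of metformin day 1.

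Osgin1, an inhibitor of growth that the antioxidant factor NRF2 induces, was the second largest fall and the only one of the 10 whose vehicle step was above 0. Its levels of 10.11, 10.13, 9.81 and 9.60 on day 1 of metformin gave way to 8.89, 7.74, 7.43 and 9.41 on day 3, without overlap. The fall was 1.55 ± 0.40 (that is, a step of -1.55, adjusted p = 0.0487), the vehicle step was 0.86 ± 0.40, and the difference between them was -2.41 ± 0.56 (adjusted p = 0.161). This call held in only 4 of the 16 fits that left out 1 array. Osgin1 was the 1 called gene of 17 tested NRF2 targets (5.88%, against 0.975% of all genes for falls, median -0.02). Nqo1, a quinone reductase of that list, stood at -1.27 without a call (adjusted p = 0.274).

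Other large falls were those of Apoc4, an apolipoprotein (-1.38 ± 0.32, adjusted p = 0.0301), Tmem37, related to calcium channel subunits (-1.15 ± 0.19, adjusted p = 0.00637), and Fam234a (-1.16 ± 0.25, adjusted p = 0.0219). Tmem37 was tight within groups, at 14.65, 15.09, 15.09 and 15.06 on day 1 and 13.87, 13.83, 13.75 and 13.85 on day 3. All day 1 rats but replicate 1 were above the vehicle range of 13.68 to 14.75, and the day 3 rats lay in its lower part. The mitochondrial glutamate carrier Slc25a22 fell by 1.03 ± 0.19 (adjusted p = 0.00917), from 11.79 to 12.66 down to 10.60 to 11.62, and the related aspartate-glutamate carrier Slc25a12 by 0.59 ± 0.12 (adjusted p = 0.0152). They were 2 of 45 tested SLC25 carriers (4.44%, against 0.975% of all genes for falls), whose median was -0.09. This family was again picked after values were seen.

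**Figure D3:**
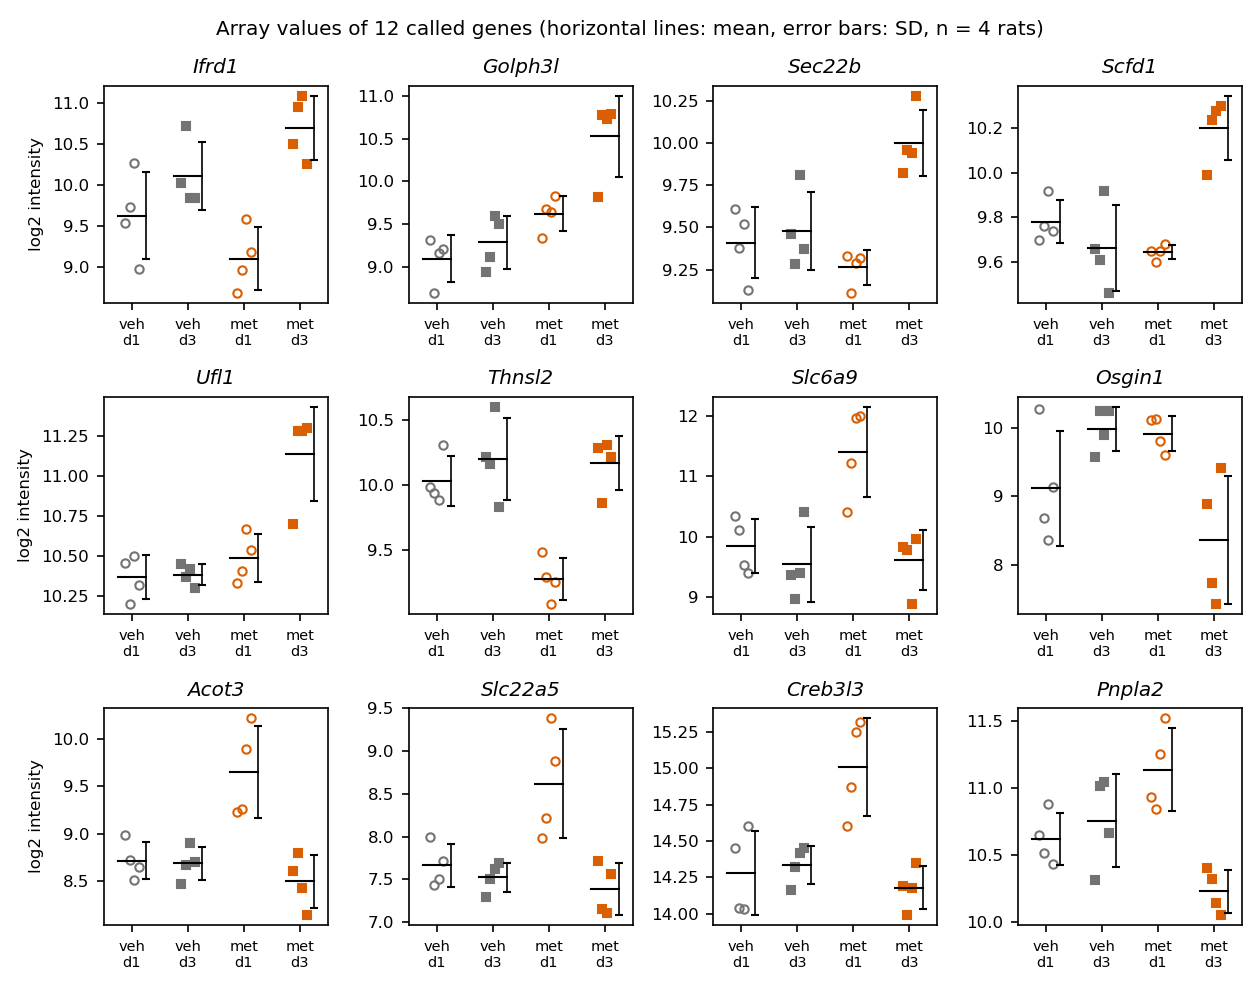
Level (log2 intensity, vertical axes, which differ between panels and do not start at 0) of 12 called genes in each rat of vehicle (veh) and metformin (met) on day 1 (d1) and day 3 (d3); horizontal lines are group means and error bars SD, n = 4 rats. By group mean, Golph3l, Scfd1 and Ufl1 are highest on metformin day 3, Slc6a9, Acot3, Slc22a5 and Creb3l3 on metformin day 1, and Thnsl2 is lowest on metformin day 1. Single rats of these groups can overlap others.

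The group of genes with the most calls was that of transport between ER and Golgi, where 10 of 37 tested genes rose (27.0%, against 0.828% of all genes) and 0 fell. Their median step was 0.23, with 31 of 37 above 0 and 21 at an unadjusted p under 0.05, and the median in vehicle livers was 0.06 with 0 calls. This list had been drawn up from metformin and vehicle livers of the same day 3 arrays. Neither its share of rises nor its direction here is therefore independent evidence. The mean level over the list was 10.87 to 10.99 in the rats of metformin day 1 and 10.97 to 11.29 in those of day 3, against 10.77 to 10.94 in vehicle rats. The count was 16 without replicate 1 of metformin day 3, and 3, 3 and 5 without replicates 2, 3 and 4. It was 5, 4, 3 and 5 without replicates 1 to 4 of metformin day 1, and the median stayed between 0.19 and 0.30 in all of these fits. After cyclic loess 8 rose and 1 fell (median 0.16), 15 rose with array weights, 3 with the metformin arm alone and 2 with every probe set tested.

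Of the 10, Scfd1, Sec22b and Blzf1 had the smallest p. Scfd1 encodes the SLY1 protein that acts with syntaxin 5 in the fusion of ER-derived vesicles. It was at 9.65, 9.60, 9.65 and 9.68 on day 1 and at 9.99, 10.24, 10.28 and 10.30 on day 3, with vehicle rats at 9.46 to 9.92. Day 3 was thus above every other rat of these days, a rise of 0.55 ± 0.10 (adjusted p = 0.00749), where the vehicle step was -0.12. Sec22b, a SNARE protein of the same step, rose by 0.74 ± 0.14 (adjusted p = 0.00973), from 9.33, 9.11, 9.29 and 9.32 to 9.82, 9.96, 9.94 and 10.28. All 4 day 3 rats were above the vehicle maximum of 9.81. Blzf1, the golgin partner also called golgin-45, rose by 0.75 ± 0.13 (adjusted p = 0.00767), from 6.36, 6.31, 6.37 and 6.66 to 6.92, 7.32, 7.27 and 7.19, without overlap and above the vehicle maximum of 6.56. These 3 genes stayed called in all 16 fits that left out 1 array.

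Golph3l, the paralogue of the Golgi phosphoprotein GOLPH3, rose by 0.91 ± 0.21 (adjusted p = 0.0329) with uneven day 3 levels. They were 9.82, 10.77, 10.73 and 10.79, after 9.34, 9.68, 9.64 and 9.83 on day 1, so that replicate 1 alone overlapped day 1. The golgin Golga3 showed the same low replicate 1, with 8.20, 8.67, 8.67 and 8.59 on day 3 after 7.92 to 8.08 on day 1, and rose by 0.53 ± 0.11 (adjusted p = 0.0152). Of the coat genes, the COPI subunits Copg1 (0.37 ± 0.09, adjusted p = 0.0302) and Copb2 (0.36 ± 0.09, adjusted p = 0.0469) and the COPII GTPase Sar1a (0.37 ± 0.09, adjusted p = 0.039) rose. The cargo receptor Lman1, which carries coagulation factors, rose by 0.43 ± 0.10 (adjusted p = 0.0336), and the GTPase-activating protein Arfgap1 by 0.36 ± 0.08 (adjusted p = 0.0267). Copb2 overlapped between days in 1 rat, replicate 1 of day 3 at 13.25 against a day 1 maximum of 13.26. No call of this paragraph held in all 16 fits that left out 1 array. They held in 4 (Copb2) to 13 (Golga3) of them, fits without a vehicle array included.

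The COPII coat itself was mixed. Sec23b had a step of 0.73 (adjusted p = 0.0577) while its paralogue Sec23a stood at -0.21 (adjusted p = 0.318), and the cargo-binding Sec24a to Sec24d lay between -0.14 and 0.17. The KDEL receptors, which return escaped ER proteins, gave -0.19 for Kdelr1 and -0.025 for Kdelr2. Arfgap3 (0.57), the SNARE Bet1 (0.46) and the tether subunit Cog3 (0.39) had adjusted p of 0.101, 0.0595 and 0.0596. Neither these nor the negative steps passed the test.

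**Figure D4:**
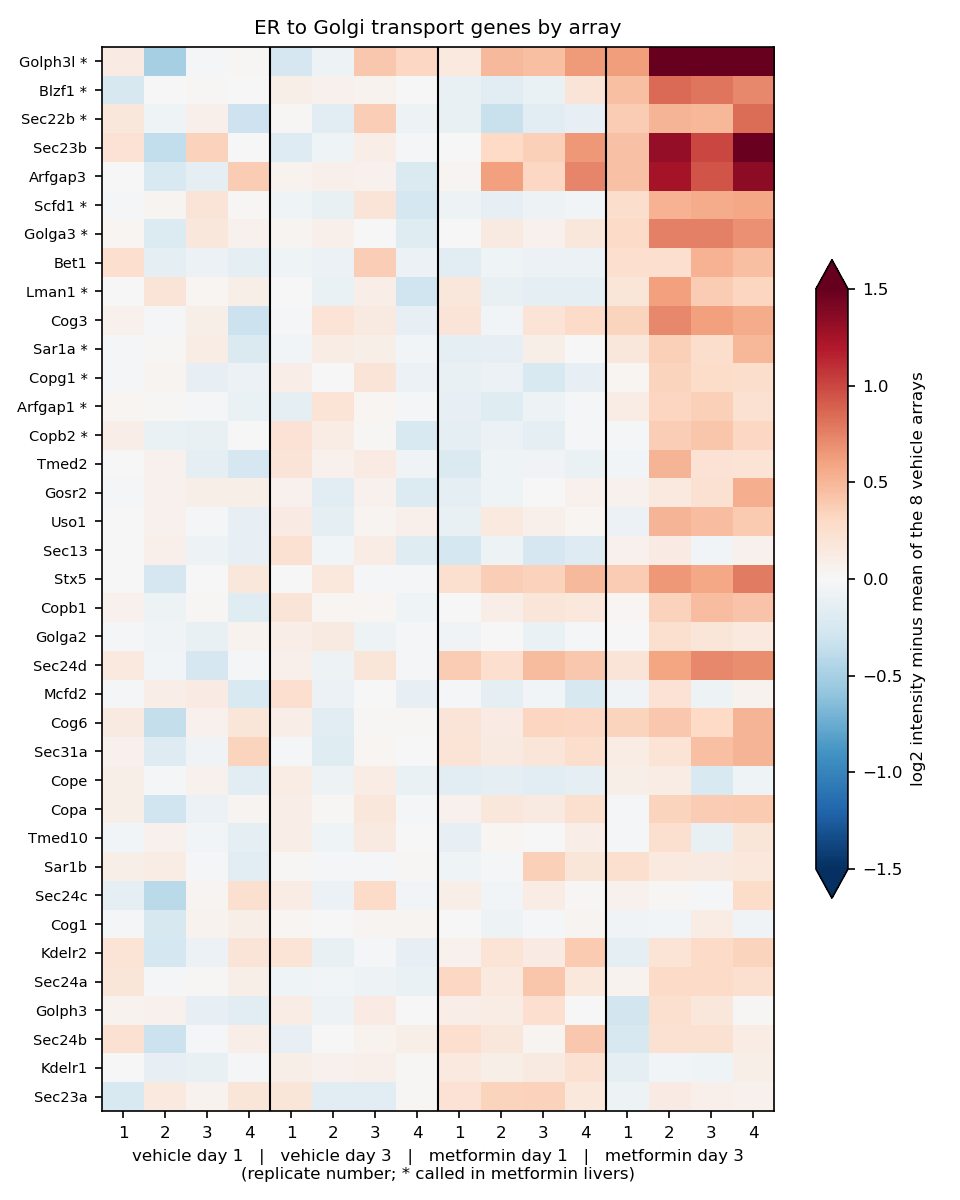
Each row is 1 of the 37 tested genes of transport between ER and Golgi, ordered from the largest to the smallest metformin step, and each column 1 rat; colour is the log2 intensity minus the mean of the 8 vehicle arrays, with values past 1.5 drawn at the end of the scale, and an asterisk marks the 10 called genes. The upper rows are red in replicates 2 to 4 of metformin day 3 and paler in replicate 1.

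The promoters of the called transport genes are shown because the ER stress factors XBP1 and ATF6 are known to bind TGACGTG and ERSE motifs in promoters of secretory genes. Windows run from 250 bases before to 50 after the annotated start, from RefSeq on build GRCr8, and 9 of the 10 called genes had one. TGACGTG, searched on both strands, was in 2 of these 9 windows, those of Scfd1 and Copb2, and in 6 of 32 tested transport genes with a window (18.8%), the others being Sec23a, Copa, Copb1 and Stx5. It was in 1.8% of 33365 windows of all genes. The ERSE motif, taken as CCAAT and CCACG with 9 bases between, was in 0 of the 9 and in 0.0659% of all windows. The ATF4 type motif TGATGNAA was in 0 of the 9 and in 3.98% of all windows. A match is a description of letters and not a shown binding site, and of these 6 genes 2 were called.
In Scfd1 (chr6:74531033-74531332, plus strand) and Copb2 (chr8:108040437-108040736, plus strand) the capitals mark the match, which reads CACGTCA because TGACGTG lies on the other strand, and which begins 26 and 9 bases before the start. Sec22b (chr2:188188533-188188832, plus strand) rose more and holds none of the motifs searched.
Scfd1: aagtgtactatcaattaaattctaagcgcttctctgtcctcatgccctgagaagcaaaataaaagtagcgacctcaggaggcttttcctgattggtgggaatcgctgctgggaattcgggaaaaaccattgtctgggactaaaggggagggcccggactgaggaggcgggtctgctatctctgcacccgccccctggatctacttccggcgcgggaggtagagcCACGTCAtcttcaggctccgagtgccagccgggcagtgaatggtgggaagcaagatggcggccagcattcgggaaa
Copb2: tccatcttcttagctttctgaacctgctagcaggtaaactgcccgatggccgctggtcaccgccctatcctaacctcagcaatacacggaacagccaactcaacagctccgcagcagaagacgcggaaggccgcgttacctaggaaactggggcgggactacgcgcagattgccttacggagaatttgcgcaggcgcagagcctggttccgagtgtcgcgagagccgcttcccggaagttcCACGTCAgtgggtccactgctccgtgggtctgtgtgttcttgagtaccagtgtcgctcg
Sec22b: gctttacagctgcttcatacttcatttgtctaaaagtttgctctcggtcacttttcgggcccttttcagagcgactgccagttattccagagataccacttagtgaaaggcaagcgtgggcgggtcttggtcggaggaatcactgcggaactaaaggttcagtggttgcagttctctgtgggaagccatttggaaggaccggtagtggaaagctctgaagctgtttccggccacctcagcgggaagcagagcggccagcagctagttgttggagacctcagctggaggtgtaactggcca

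A few genes of protein folding in the ER rose. Of 26 tested ER chaperones and unfolded protein response genes, 3 rose and 0 fell (11.5%, against 0.828% of all genes for rises), 25 of 26 steps were above 0 and the median was 0.27, against 0.08 in vehicle livers. Ufl1, the ligase that attaches the modifier UFM1 at the ER, was at 10.33, 10.41, 10.67 and 10.54 on day 1 and at 10.70, 11.28, 11.28 and 11.30 on day 3. The rise was 0.65 ± 0.12 (adjusted p = 0.00819) against 0.01 in vehicle livers, whose rats lay at 10.20 to 10.50. The protein disulfide isomerases P4hb and Pdia3 rose by 0.49 ± 0.09 (adjusted p = 0.0115) and 0.28 ± 0.07 (adjusted p = 0.039). P4hb went from 16.34, 16.24, 16.24 and 16.31 to 16.64, 16.86, 16.88 and 16.72.

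The sensors and best known markers of ER stress did not pass the test. The chaperone Hspa5 (BiP) stood at 0.26 ± 0.13 (adjusted p = 0.303) and turned to -0.04 after a further quantile normalization, the sensor gene Atf6 at -0.11, and the transcription factor gene Xbp1 at 0.02. Creld2 (0.75, adjusted p = 0.0672) and Hyou1 (0.62, adjusted p = 0.107) had larger steps without a call. Without replicate 1 of metformin day 3 the list had 9 calls, and without replicate 3 it had 1. It had 1 after quantile normalization (median 0.13) and after cyclic loess (median 0.14), 1 with the metformin arm alone, 2 after median centring, 9 with array weights and 0 with every probe set tested.

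Some genes of the machinery that brings proteins into the ER also rose, in families picked after values were seen, where 0.828% of all genes rose. Of 4 translocon-associated proteins, Ssr1 rose by 0.62 ± 0.11 (adjusted p = 0.00819) and Ssr3 by 0.54 ± 0.13 (adjusted p = 0.033), with a family median of 0.42. Ssr1 levels were 12.22, 12.03, 11.85 and 12.03 on day 1 and 12.31, 12.81, 12.77 and 12.72 on day 3, again with replicate 1 lowest. Of 7 genes of the signal recognition particle and its receptor, which guide ribosomes to the ER, all 7 steps were above 0, and Srpra (0.51 ± 0.11, adjusted p = 0.0221) and Srp14 (0.31 ± 0.08, adjusted p = 0.04) rose. Of 12 subunits of the oligosaccharyltransferase, which attaches N-glycans, Ostc (0.71 ± 0.15, adjusted p = 0.0195) and Tusc3 (0.51 ± 0.12, adjusted p = 0.0338) rose while the family median was 0.01, with Dad1 at -0.93 (adjusted p = 0.0822). Other called rises outside the lists were Selenos (0.60), of ER-associated degradation, Bhlha15 (0.58), a transcription factor of secretory cells, and the sugar nucleotide enzymes Gmppb (0.72) and Pgm3 (0.62). In the fits that left out 1 array, Ssr1 and Selenos stayed called in all 16, and the other calls named here in 8 to 13. These counts include fits without a vehicle array.

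Genes of PPARA and fatty acid oxidation gave the most calls downward among the lists. Of 32 tested genes 4 fell and 0 rose (12.5%, against 0.975% of all genes for falls), with 13 at an unadjusted p under 0.05, a median of -0.11 in metformin livers and 0.07 in vehicle livers. Acot3, an acyl-CoA thioesterase known from the mouse as a peroxisomal enzyme, was at 9.23, 9.26, 9.89 and 10.22 on day 1 and at 8.61, 8.80, 8.43 and 8.14 on day 3. Vehicle rats lay between 8.47 and 8.98, so all 4 day 1 rats were above them, and on day 3 replicates 1 and 2 were inside their range and replicates 3 and 4 below it. The fall was 1.16 ± 0.18 (2.23-fold, adjusted p = 0.00479), the vehicle step -0.03, and the difference of steps -1.13 ± 0.25 (adjusted p = 0.147).

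Slc22a5, the carnitine transporter OCTN2, followed a similar path, though replicate 1 of day 1 lay inside the vehicle range. Day 1 levels of 7.99, 8.22, 9.39 and 8.88 fell to 7.72, 7.15, 7.11 and 7.56, by 1.23 ± 0.22 (adjusted p = 0.00819), with vehicle rats at 7.30 to 8.00. Creb3l3, the liver transcription factor CREBH of triglyceride metabolism, fell by 0.83 ± 0.16 (adjusted p = 0.0115), from 14.60, 14.87, 15.25 and 15.32 to 14.19, 13.99, 14.18 and 14.35. Its day 3 rats lay within the vehicle range of 14.03 to 14.60 or just under it. The fourth gene was Acot4, at -0.67 ± 0.15 (adjusted p = 0.0234), and the other 3 stayed called in all 16 fits that left out 1 array. The list kept 4 calls under each scaling, with medians of -0.28 after quantile normalization, -0.26 after cyclic loess and -0.04 after median centring, but had 2 with every probe set tested, 0 with the metformin arm alone and 7 with array weights.

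Of 12 tested Acot genes, a family picked after values were seen, Acot3, Acot4, Acot5 and Acot7 fell (33.3%, against 0.975% of all genes), 9 of 12 steps were below 0 and the median was -0.35, against -0.004 in vehicle livers. Acot5, peroxisomal in the mouse, fell by 1.48 ± 0.31 (adjusted p = 0.019), from 6.80 to 7.24 down to 4.96 to 6.22, and the cytosolic Acot7 by 0.38 ± 0.08 (adjusted p = 0.0158). Acot1 (-0.67, adjusted p = 0.0729) and Acot2 (-0.50) were not called. These genes are near-identical paralogues in part, so probes may share their signal.

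Other central genes of the pathway kept a wide spread. Cpt1a, which makes acylcarnitines at the outer mitochondrial membrane, stood at 12.15, 12.19, 13.78 and 13.13 on day 1 and at 12.06, 11.34, 11.65 and 11.41 on day 3. The groups did not overlap, but the step of -1.20 ± 0.36 missed the threshold (adjusted p = 0.0792). Pdk4, a kinase that shuts pyruvate dehydrogenase, gave -0.76 (adjusted p = 0.138) and the gene of the receptor, Ppara, -0.60 (adjusted p = 0.115). The enzymes of the oxidation spiral lay near 0, with Acadl at 0.02, Hadha at -0.08 and Acadm at 0.23. Angptl4, an inhibitor of lipoprotein lipase, had steps of 1.84 in vehicle and 0.06 in metformin livers, in neither case with a call. Fgf21, the hepatokine gene under PPARA, stood at 0.02 ± 0.32. The motif of PPARA, 2 copies of AGGTCA with 1 base between, was in 0 of the 4 called promoters and 0.0539% of all.

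Most lipid synthesis genes leaned up, without calls upward, while the smallest p of the list belonged to steps below 0. Of 21 fatty acid and triglyceride synthesis genes, 16 steps were above 0 and the median was 0.46, where 17 vehicle steps were below 0 with a median of -0.30. The widest pairs of steps, metformin against vehicle, were Pnpla3 at 1.36 and -1.22, Elovl6 at 1.20 and -1.46, Acly at 1.15 and -0.54, and Fasn, the fatty acid synthase, at 0.76 ± 0.53 and -1.12 ± 0.53. None of these passed a test, including that of the difference (for Fasn 1.88 ± 0.74, adjusted p = 0.365). Fasn levels overlapped, at 13.92, 14.44, 13.57 and 12.93 on day 1 and 14.45, 15.68, 13.95 and 13.81 on day 3. Without replicate 3 of metformin day 1 the list median was 0.24.

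The 1 called gene of that list (4.76%, against 0.975% of all genes for falls) went the other way. Agpat2, the acyltransferase that makes phosphatidic acid on the way to triglyceride, fell by 0.75 ± 0.11 (adjusted p = 0.00479), from 12.81, 12.72, 12.78 and 12.64 to 12.03, 11.88, 12.04 and 12.00. The day 3 rats were at the lower end of the vehicle range of 12.02 to 12.86 or below it, and the vehicle step was -0.29. This call held in all 16 fits that left out 1 array. Next by p in that list were Dgat2 (-0.39, adjusted p = 0.0524) and Dgat1 (-0.26, adjusted p = 0.0779), also below 0 and not called. Pnpla2, adipose triglyceride lipase, was the 1 called gene of 16 of lipid droplets and lipolysis (6.25%, median -0.18). It fell by 0.91 ± 0.19 (adjusted p = 0.0188), from 10.93, 10.84, 11.25 and 11.52 to 10.40, 10.32, 10.14 and 10.05, without overlap. Without replicate 3 of metformin day 3 its adjusted p was 0.0758, and the call was also lost without replicate 3 or 4 of metformin day 1. Agpat2 and Pnpla2 act at opposite ends of triglyceride turnover and both were lower on day 3.

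Of 18 lipoprotein genes, 2 fell (11.1%, against 0.975% of all genes) and 0 rose, with a median of -0.11. The list had 4 falls after quantile normalization (median -0.35), 3 after cyclic loess (median -0.29), 0 after median centring (median -0.04) and 0 with every probe set tested. Lcat, the plasma enzyme that esterifies cholesterol on HDL, fell by 0.35 ± 0.07 (adjusted p = 0.0115), and Scarb1, the HDL receptor, by 0.56 ± 0.14 (adjusted p = 0.0408). Scarb1 was at 11.96, 11.91, 12.08 and 12.20 on day 1, above all vehicle rats (11.25 to 11.78), and at 11.57, 11.38, 11.45 and 11.49 on day 3, inside their range. Its call was lost without any 1 of the metformin arrays other than replicate 1 of day 3, with adjusted p up to 0.12, while Lcat stayed called throughout. Of 20 genes of cholesterol synthesis and uptake, 0 were called by limma, 4 had an unadjusted p under 0.05, and 17 were above 0, with medians of 0.15 in metformin and 0.12 in vehicle livers.

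Cyp7a1, the rate-limiting enzyme of bile acid synthesis, had the largest step of the named genes and was not called. Its levels were 14.10, 12.63, 12.94 and 11.39 on day 1 and 15.84, 16.38, 16.44 and 14.15 on day 3. The groups did not overlap, and the step was 2.94 ± 0.79 (adjusted p = 0.0561). Relative to the vehicle mean, day 1 stood at -2.46 and day 3 at 0.48, while vehicle rats ranged from 13.25 to 16.71. The vehicle step was -0.03, and the difference of steps 2.97 ± 1.11 (adjusted p = 0.347). None of the 16 tested genes of bile acid synthesis and transport was called by limma, and 6 had an unadjusted p under 0.05.

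Glucose genes gave few calls. None of 17 gluconeogenesis genes was called by limma (4 at an unadjusted p under 0.05, median -0.11). G6pc1, glucose-6-phosphatase, had steps of 0.93 ± 0.50 in metformin and 1.24 ± 0.50 in vehicle livers, and Pck1, the cytosolic PEP carboxykinase, -0.18 ± 0.49 and 0.63 ± 0.49. Ppargc1a, a coactivator of both, stood at -0.57 ± 0.22 (adjusted p = 0.168). Of 20 genes of glycolysis and fructose use 1 rose and 1 fell (10.0% called, against 1.8% of all genes). Pdk1, a kinase that shuts pyruvate dehydrogenase, rose by 0.63 ± 0.13 (adjusted p = 0.0184), from 10.16 to 10.34 up to 10.70 to 10.99. Tpi1, triosephosphate isomerase, fell by 0.46 ± 0.11 (adjusted p = 0.0305), and both lost their call without replicate 2 of metformin day 3 and without replicate 2 or 4 of metformin day 1. None of 11 glycogen genes and none of 20 genes of insulin, IGF and growth hormone was called by limma, with 2 and 5 at an unadjusted p under 0.05. Cish, a growth hormone target, gave steps of -2.62 in metformin and -1.53 in vehicle livers, and Igfbp1 -0.01 ± 0.99 in metformin livers.

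Of 37 genes that break down amino acids or make urea, 3 fell (8.11%, against 0.975% of all genes) and 0 rose (median -0.05, against -0.11 in vehicle livers). They were Cbs, cystathionine beta-synthase (-0.79 ± 0.17, adjusted p = 0.0234), Asl, argininosuccinate lyase (-0.56 ± 0.14, adjusted p = 0.0347), and Hal, histidine ammonia-lyase (-0.85 ± 0.21, adjusted p = 0.0386). Cbs went from 14.01, 14.18, 14.61 and 14.21 to 13.48, 13.42, 13.26 and 13.70 without overlap. All 3 calls were lost without replicate 2 or 3 of metformin day 3, and without replicate 2, 3 or 4 of metformin day 1. After median centring 1 of them was called, and with the metformin arm alone or every probe set tested 0.

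Of 18 folate and choline-glycine enzymes, a group picked after values were seen, 4 rose (22.2%, against 0.828% of all genes) and 0 fell, 14 were above 0, and the median was 0.14 against -0.04 in vehicle livers. Aldh1l1, which oxidises 10-formyltetrahydrofolate, was at 14.11, 13.92, 13.34 and 13.99 on day 1 and 14.78, 14.37, 14.85 and 15.07 on day 3, a rise of 0.92 ± 0.24 (adjusted p = 0.0454). Its call held in 3 of the 16 fits that left out 1 array. Sardh, which breaks sarcosine down to glycine, rose by 0.70 ± 0.17 (adjusted p = 0.033), from 11.80 to 12.43 up to 12.63 to 13.05. Vehicle rats stepped by -0.37 for Sardh, and the difference was 1.08 ± 0.24 (adjusted p = 0.147). Bhmt2, a homocysteine methyltransferase, and Dld, a subunit that the glycine cleavage system shares with pyruvate dehydrogenase, both rose by 0.45 ± 0.10 (adjusted p = 0.0276 and 0.0326).

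Ribosome assembly genes leaned up. Their list also stemmed from earlier results of the day 3 arrays, so its calls and direction are not independent evidence. Of 35 tested genes 1 rose (2.86%, against 0.828% of all genes) and 0 fell. In metformin livers 31 were above 0 and the median was 0.24, where 32 of 35 vehicle steps were below 0 (median -0.11). Pwp1, a factor of ribosome biogenesis, rose by 0.61 ± 0.13 (adjusted p = 0.0221), from 7.10, 7.01, 7.10 and 7.25 to 7.66, 7.81, 7.64 and 7.80, all above the vehicle maximum of 7.46. Nop58 (0.80, adjusted p = 0.0747), of the box C/D particles, and the tRNA methyltransferase gene Mettl1 (0.71, adjusted p = 0.0589) were not called. Without replicate 1 of metformin day 3 there were 5 calls, without replicate 2 or 3 there were 0, as also without replicate 2 or 3 of metformin day 1. Without replicates 2, 3 and 4 of vehicle day 1 there were 3, 2 and 2. Nopchap1, a chaperone of the box C/D ribonucleoproteins that modify ribosomal RNA, rose by 0.54 ± 0.08 (adjusted p = 0.00479). Rpf2 (0.71) and Exosc8 (0.63), of ribosome assembly and the RNA exosome, were further called rises outside the lists.

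The ATF4 and heat shock lists held no called gene. None of 33 genes of the ATF4 response was called by limma, with 12 at an unadjusted p under 0.05 and a median of 0.16 against -0.05 in vehicle livers. Nupr1, a stress-induced chromatin protein, was at 11.03, 11.62, 11.76 and 12.03 on day 1 and 13.08, 12.42, 12.38 and 12.48 on day 3. These groups did not overlap, and the step was 0.98 ± 0.34 (adjusted p = 0.125). Atf4 itself gave 0.79 ± 0.26 (adjusted p = 0.107), also without overlap, Gdf15 0.41 ± 0.19 and Trib3 0.22 ± 0.16. The biosynthetic targets Asns, Psat1 and Phgdh lay at -0.35, -0.52 and -0.47. None of 21 cytosolic heat shock genes was called by limma (3 at an unadjusted p under 0.05), with medians of -0.17 in both arms. Hspa8 stayed 0.70 above the vehicle mean on day 1 and 0.61 above on day 3, with a step of -0.09 ± 0.17.

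Complex I, the respiratory enzyme that metformin inhibits, had calls in both directions. Of 29 tested subunits in the list 4 were called (13.8%, against 1.8% of all genes), with a median of -0.03. Ndufa10 (0.35 ± 0.07, adjusted p = 0.0108) and Ndufs5 (0.54 ± 0.14, adjusted p = 0.0396) rose. Ndufa3 (-0.71 ± 0.17, adjusted p = 0.0343) and Ndufb11 (-0.45 ± 0.10, adjusted p = 0.0302) fell. Ndufa10 was at 11.01, 11.14, 11.07 and 11.03 on day 1 and 11.43, 11.32, 11.40 and 11.51 on day 3. The vehicle rats, at 11.14 to 11.36, reached into both ranges. Only Ndufa10 of these 4 stayed called in all 16 fits that left out 1 array. Without any 1 of the metformin arrays other than replicate 1 of day 3, at most 2 of the 4 calls were left. Ndufab1 and Ndufa10l1, which the list does not hold, were also called. Each call held in 10 of the 16 fits, a count that includes fits without a vehicle array. Of 39 further respiratory chain and ATP synthase genes, picked after values were seen, 1 rose and 2 fell (7.69% called, against 1.8% of all genes, median -0.03). Uqcrbl1 (0.58, adjusted p = 0.019) rose, where Uqcrb itself stood at 0.46 without a call (adjusted p = 0.0596). Cox8a (-0.57) and Atp5d (-0.51), small subunits of cytochrome oxidase and ATP synthase, fell. The call of Cox8a held in 4 of the 16 fits. Mterf1, a transcription factor of mitochondrial DNA, rose by 0.65 ± 0.10 (adjusted p = 0.00479).

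Mterf1 shows the pattern of a gene near the vehicle level on day 1 and above it on day 3. Its levels were 7.33, 7.08, 7.38 and 7.35, then 7.82, 7.94, 7.79 and 8.18, with vehicle rats at 6.97 to 7.40. Pcbp2, an RNA-binding protein, shows the opposite one. It was at 11.45, 11.51, 11.54 and 11.60 on day 1, above all vehicle rats (11.03 to 11.24), and at 11.14, 11.03, 11.14 and 11.12 on day 3, inside their range. The fall was 0.42 ± 0.06 (adjusted p = 0.00479). For Mterf1 the difference from the vehicle step was 0.81 ± 0.14 and for Pcbp2 -0.48 ± 0.08, both at an adjusted p of 0.0641. Loxl1, a lysyl oxidase of elastic fibres, fell by 0.52 ± 0.10 (adjusted p = 0.0108) while the vehicle step was 0.26, with a difference of -0.78 ± 0.14 (adjusted p = 0.0641).

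The test of the difference depended on single arrays too. It called 11 genes without replicate 1 of metformin day 3 and 8 without replicate 4 of vehicle day 1. The other genes with the smallest p for the difference were Scfd1, Yod1 and Akap9 on the side of a larger metformin step, and Klhdc3, Pld3 and Serinc3 on the other. Yod1, a deubiquitinase of ER-associated degradation, had steps of 0.63 ± 0.15 and -0.39 ± 0.15 in metformin and vehicle livers. Pld3, a lysosomal nuclease, had steps of -0.66 ± 0.11 and 0.11 ± 0.11.

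Cell cycle and clock genes gave few calls. Cdk2, the kinase of the G1 to S transition, fell by 0.58 ± 0.12 (adjusted p = 0.0152), from 7.76, 7.76, 7.98 and 8.15 to 7.10, 7.49, 7.38 and 7.39, with vehicle rats at 7.14 to 7.53. Mcm3, of the replicative helicase, fell by 0.33 ± 0.08 (adjusted p = 0.0347), with a vehicle step of -0.25 beside it. Calls of both genes were lost without replicate 4 of metformin day 1, that of Cdk2 also without its replicate 3, and that of Mcm3 held in 10 of the 16 fits. None of 26 mitosis genes was called by limma in metformin livers, 0 of them at an unadjusted p under 0.05, and their median of -0.05 stood beside -0.49 in vehicle livers, where all 26 steps were below 0, also without a call. The clock output gene Tef fell by 0.32 ± 0.07 (adjusted p = 0.0295), the 1 call among 20 clock genes (5.0%, against 0.975% of all genes for falls). It held in 10 of the 16 fits, a count that, like that of Mcm3, includes fits without a vehicle array. Per1 gave 0.82 ± 0.22 (adjusted p = 0.0525) against -0.52 ± 0.22 in vehicle livers. The hour of necropsy is not given in the sources used here. Dusp6, a phosphatase of ERK (-1.67, adjusted p = 0.0699), had the largest step of 22 immediate early genes, none of them called by limma (5 at an unadjusted p under 0.05).

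The Wnt feedback gene Axin2 stood 0.68 above the vehicle mean on day 1 and 0.40 above on day 3. It was at 6.80, 7.20, 7.71 and 7.43 on day 1 and at 6.91, 6.89, 7.08 and 7.16 on day 3, with vehicle rats at 6.38 to 6.85. The days overlapped, and the step of -0.28 ± 0.14 was not called (adjusted p = 0.304). The metallothioneins Mt1 and Mt2A gave -0.90 ± 0.77 and -0.62 ± 0.74. For both, replicate 4 of day 3 was lowest, at 14.89 and 13.80, and without it the step of Mt2A was 0.18.

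**Figure D5:**
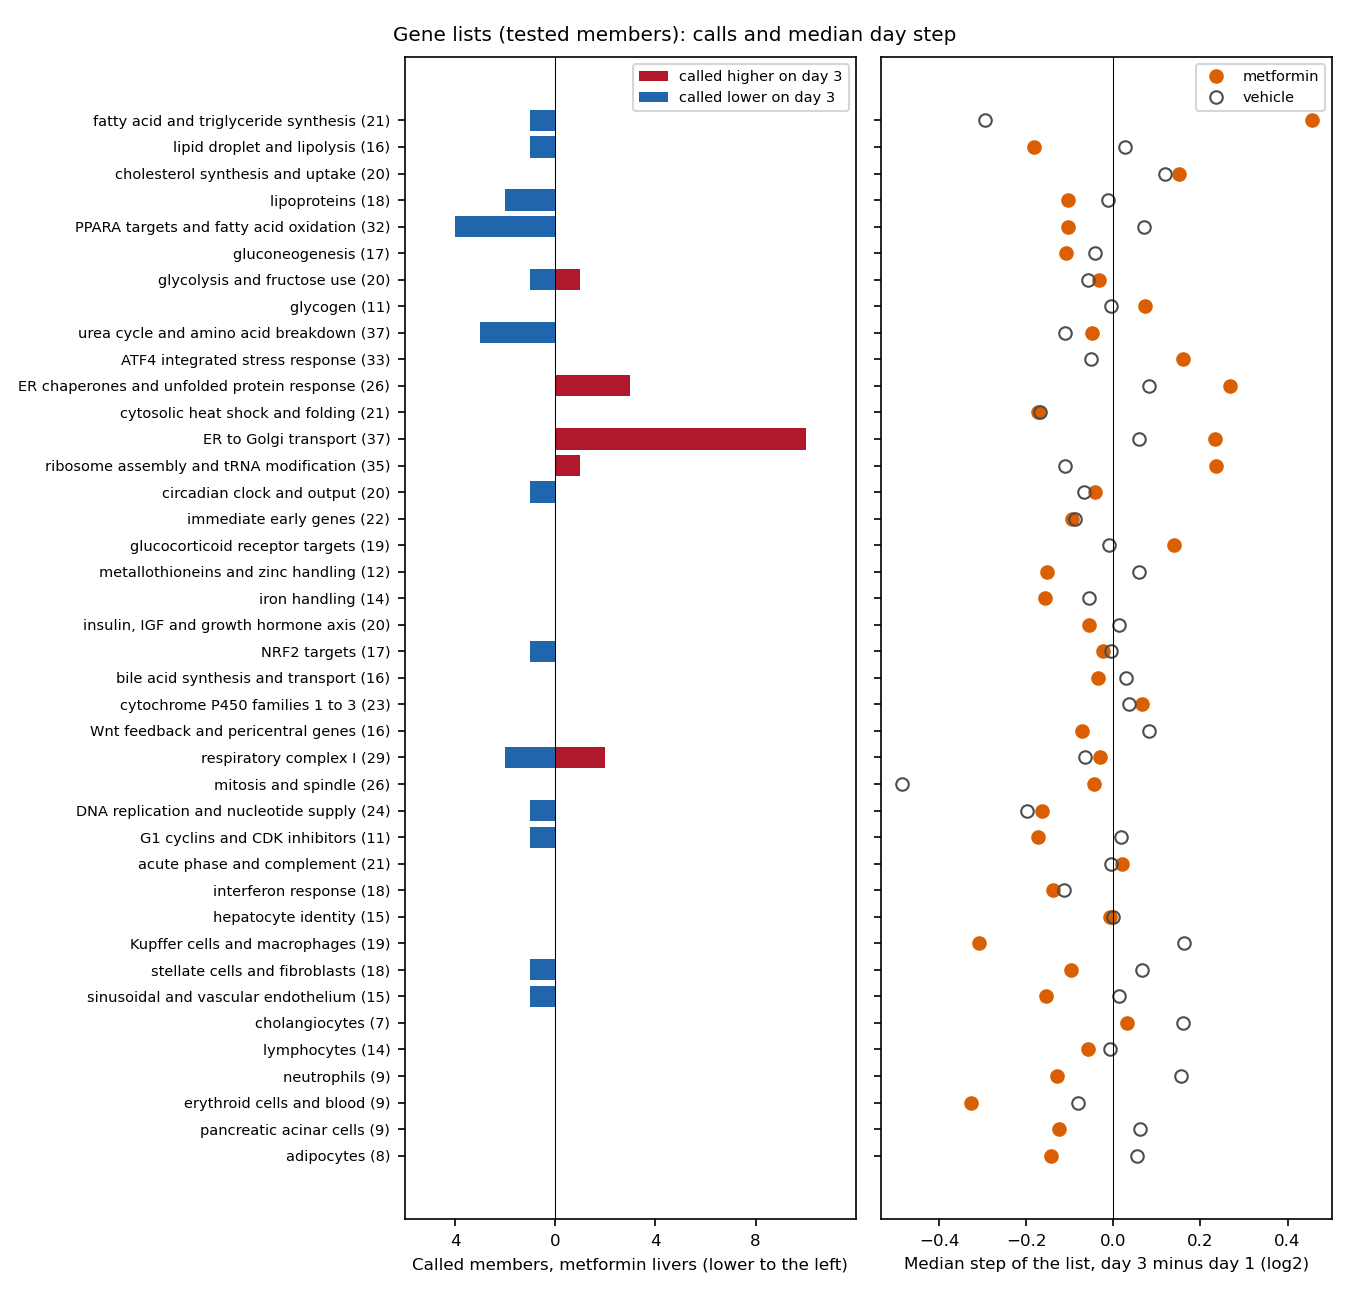
For each of 40 gene lists (number of tested genes in brackets), the left panel shows how many genes were called higher (red, to the right) or lower (blue, to the left) on day 3 of metformin, and the right panel the median step (log2) in metformin livers (filled) and vehicle livers (open). Transport between ER and Golgi has the longest bar with 10 rises, PPARA targets the longest to the left with 4 falls, and the arms stand widest apart for fatty acid synthesis (0.46 against -0.30).

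Markers of other liver cells gave 2 calls, both falls, and most of their lists had a median below 0. In tissue RNA, fewer cells of a type and less RNA per cell cannot be told apart. Of 19 Kupffer cell and macrophage genes, 0 were called by limma, 4 had an unadjusted p under 0.05, and 18 steps were below 0 (median -0.31), where 18 vehicle steps were above 0 (median 0.16). The difference of the steps was below 0 for all 19, with a median of -0.46, 5 at an unadjusted p under 0.05 and 0 called by limma. The mean level over these genes was 9.06 to 9.74 on day 1 of metformin, 8.82 to 9.57 on day 3 and 9.20 to 9.99 in vehicle rats, so the groups overlapped. Cd14 (-0.82), Cd68 (-0.63) and C1qb (-0.62) had the largest steps. Cd14 was also the 1 gene of the list whose vehicle step was below 0, at -0.49.

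Of 15 endothelial genes 1 fell (6.67%, against 0.975% of all genes), and 14 of 15 steps were below 0 (median -0.16). It was Eng, the TGF-beta co-receptor endoglin, which fell by 0.92 ± 0.17 (adjusted p = 0.01). Eng went from 11.22, 10.96, 11.36 and 11.20 to 10.30, 10.39, 10.08 and 10.27, with vehicle rats at 10.55 to 11.04, and its call held in all 16 fits. Tgfb1, a ligand of the receptors that endoglin joins, was a called fall outside the lists at -0.89 ± 0.21 (adjusted p = 0.0295). The mean level of the endothelial list was 9.34 to 9.47 on day 1 and 9.02 to 9.31 on day 3 of metformin, without overlap, beside 9.16 to 9.50 in vehicle rats. Its part in the falls of other genes was not tested.

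Of 18 stellate cell and fibroblast genes Loxl1 alone fell (5.56%, against 0.975% of all genes), a call lost without replicate 3 of metformin day 3. The median of the list was -0.10, and its mean level 8.06 to 8.24 and then 7.95 to 8.07. None was called by limma among 7 cholangiocyte, 14 lymphocyte, 9 neutrophil, 9 erythroid, 9 pancreatic acinar and 8 adipocyte genes, where 0, 1, 4, 1, 0 and 2 had an unadjusted p under 0.05. The erythroid list, with the haemoglobin genes, had a median of -0.33, and its mean level ran from 8.27 to 8.92 on day 1, 7.82 to 8.67 on day 3 and 8.45 to 8.78 in vehicle rats. None of the 15 hepatocyte identity genes was called by limma (2 at an unadjusted p under 0.05), and their median of -0.01 became -0.26 after cyclic loess and 0.05 after median centring, with Foxa2 at -0.77 (adjusted p = 0.0948). Of the remaining lists, 0 genes were called by limma among 23 cytochrome P450, 21 acute phase and complement, 18 interferon, 14 iron, 12 metallothionein and zinc, 19 glucocorticoid and 16 Wnt and pericentral genes, with 4, 1, 1, 4, 1, 5 and 1 at an unadjusted p under 0.05.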

How the data were processed

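Liver RNA of 24 male rats was measured on 1-colour Affymetrix arrays, 1 array per rat and 4 per group, 2 treatments by 3 days. The authors deposited 1 table of linear intensity values per probe set and array, summarised with RMA per the submitters' processing notes, with the version not given in the sources used here. Array maxima of 982564 to 994415 show that the values are not logged, and the number of arrays limits their precision. Raw scans were not used here.

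Values were taken to log2. Of 68842 probe sets, 23446 carried 1 gene symbol, 505 several and 44891 none in the platform's annotation. Matching by Entrez identifier to RefSeq's rat gene table succeeded for 22077 and replaced 1 symbol. Each of 22093 genes was represented by its probe set with the highest mean over all arrays (1182 genes had more than 1). Genes above 4.28 (log2), the 30th percentile of all values (an intensity of 19.475), in at least 4 arrays were tested. limma 3.58.1 in R 4.3.3 fitted 6 group means over 24 arrays (lmFit and eBayes, 18 residual and 3.51 prior degrees of freedom). Tests are two-sided with Benjamini-Hochberg adjustment over all tested genes, and every adjusted p in the text is limma's. No batch or scan time was modelled, and cages are not tied to arrays in the labels.

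Genes named are the 10 largest rises and falls among the calls, leaving out symbols that begin with LOC, RGD, Mir, Sno, AABR or AC, chemoreceptors and pseudogenes (17 of the called rises and 8 of the falls), the 5 genes each way with the smallest p for the other contrasts, up to 4 called genes per list, and genes of known interest. Other genes, and the gene families, were chosen after their values were seen. The compared arrays and the 40 gene lists were chosen with earlier results of these data known. The lists of ER to Golgi transport and of ribosome assembly came from day 3 metformin and control arrays used here. Same-numbered arrays of the metformin days had correlated deviations of -0.10, 0.14, -0.14 and 0.12, so replicate numbers were not taken to pair rats. Alternatives covered the scaling, the filter, the probe set per gene, pseudogene symbols, the arrays fitted, variance settings, a replicate block and leaving out each array.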

Additional observations from a re-analysis of the deposited data

Results flagged for a closer look

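In 30 of 560 groups of 4 rats (140 genes), 1 rat stood apart from the other 3 by Dixon's criterion, where chance alone gives about 1 in 20. All values are log2 intensities.

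Replicate 1 of metformin day 3 was the low rat for Golph3l at 9.82, Ufl1 at 10.70 and Golga3 at 8.20, and the high rat for Nupr1 at 13.08. Without this array 680 genes were called. In the same group, replicate 3 was low for the transporter Slc6a9 at 8.89 and for Tcf7 at 5.44. Replicate 4 was low for Per1 at 7.21 and high for the neutrophil gene Elane at 5.35.

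On metformin day 1, replicate 1 was low for Tmem37 at 14.65 and for Clec4g at 9.40, and high for Irf1 at 9.15. Replicate 2 was low for Mterf1 at 7.08, replicate 3 for S100a9 at 4.11, and replicate 4 for Gstp1 at 7.69. Replicate 4 was high for Blzf1 at 6.66, a gene still free of overlap between the days.

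Among vehicle rats of day 1, replicate 4 was the high rat for 7 genes. These were Dgat2 at 14.93, Tcf7 at 5.63, the complex I genes Ndufb11 at 9.12 and Ndufa3 at 8.21, the macrophage gene C1qc at 7.48, Ecm1 at 12.02 and the haemoglobin gene Hba-a1 at 18.78. Replicate 1 was low for Acot5 at 5.94 and Blzf1 at 6.23 and high for Fgf21 at 6.57, replicate 2 low for Muc1 at 4.85, and replicate 3 low for Mgll at 9.07. On vehicle day 3, replicate 2 was high for Lss at 10.67 and low for Cyp7a1 at 13.25, and replicate 4 low for Pmvk at 8.16.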

How the results depend on the processing

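All alternatives were planned, and none was added. The count of genes changed between the metformin days, 355 as reported, was 138 after median centring, 43 when every probe set was tested, 98 with the metformin arm alone and 907 with array weights. It stayed within 1.5 times of 355 under the other settings that left out no single array, and the fit of the arm alone rests by construction on 8 arrays. Leaving out 1 array gave 63 to 680. With a replicate block it was 313, of which 280 were among the 355. Same-numbered rats did not deviate together, so this is a hint about numbering only. The vehicle step gave 0 calls by limma under every setting run, against 927 at an unadjusted p under 0.05 as reported. The difference of the steps, 0 as reported, gave 1 call after cyclic loess, 4 with the stricter filter, 1 with trend and robust variance, 13 with array weights, and 0 to 11 when 1 array was left out. No called gene among the 57 reversed, which the call itself favours. Among uncalled steps in metformin livers, that of F13b (0.10 with the settings of the report) turned to -0.138 after quantile normalization and -0.083 after cyclic loess, and Hspa5 to -0.039 after quantile normalization. Under median centring Tspan8 came to 0, Igfbp1 to 0.052 and Nr1d1 to 0.039. Krt7 came to 0.091 with the mean of probe sets and Fgf21 to -0.134 with array weights. Over the fits without 1 array, Foxm1 ranged from -0.311 to 0.025, Pck1 from -0.418 to 0.042, Fgf21 from -0.247 to 0.30, Igfbp1 from -0.684 to 0.589, Nr1d1 from -0.314 to 0.24 and Mt2A from -1.139 to 0.179. The cause of these shifts was not tested. Of the list medians under all alternatives, 1125 moved by less than the spread between rats and 35 by more. Leaving out a vehicle array or fitting the metformin arm alone cannot move a metformin median. The 1125 therefore include comparisons whose outcome was fixed in advance, and their share is no measure of stability.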

Other observations

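Further called genes outside the lists were picked after their values were seen, so no theme is drawn from them. The proton pump subunit Atp6v0c fell by 0.56 (adjusted p = 0.00819), the sphingolipid activator Psap by 0.51 and the lysosomal protease Ctsb by 0.26. Of 24 vacuolar ATPase genes 2 fell (8.33%, against 0.975% of all genes) and 0 rose, 9 were above 0 and the median was -0.09. Of 5 subunits of gamma-secretase, the membrane protease that cleaves Notch, Psenen (-0.52) and Ncstn (-0.30) fell (40.0%, against 0.975% of all genes). All 5 steps were below 0, with a median of -0.33. The Wnt receptor gene Fzd4 fell by 0.90, the tight junction gene Cldn1 by 0.84, angiotensinogen, Agt, by 0.49 and the angiotensin receptor gene Agtr1a by 0.71.

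In the other direction, the mitochondrial enzymes Acat1 (0.60), of ketone body metabolism, and Hibch (0.65), of valine breakdown, rose. Smn1 (0.35) and Gemin2 (0.38), partners in the assembly of spliceosomal particles, rose as well. Of 162 genes with Rpl or Rps symbols of cytosolic ribosomal proteins, many of them numbered copies, 0 rose and 2 fell (1.23%, against 0.975% of all genes). The falls were Rps15 and the copy Rpl27l2, where Rpl27 itself stood at 0.003. The median was -0.006, close to that of all genes at -0.04.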
